A study of Mus musculus with 2 samples.

Results

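The circadian clock genes described here are 10 genes chosen by their symbol in the transcript tables: Nr1d1, Nr1d2, Per1, Per2, Cry1, Cry2, Dbp, Arntl, Clock and Bhlhe41. All 10 were found among 55536 annotated genes. Their RNA was measured in 2 libraries of 1 group, so that no condition is compared and no test between groups was possible. The cells were macrophages grown from bone marrow of C57BL/6J mice. Untreated cells were not analysed here. Both libraries shared the same treatment, 100 ng/ml Lipid A for 12 h, 12 h without it and 100 ng/ml again for 30 min, and both hold ribosome-depleted RNA of the nucleoplasmic fraction. Lipid A is the part of bacterial lipopolysaccharide that Toll-like receptor 4 recognises. Sex and age were not collected and the time of day is not given in the labels. The libraries are biological replicates 1 and 2, built from 1 µg and 500 ng RNA, with separate biosample records and 1 donor record. Nothing in the labels says whether they came from separate animals or cultures, so their spread may be technical.

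The mammalian clock is a loop of transcription in which CLOCK and ARNTL (also called BMAL1) form a pair that binds E-boxes and activates the Per and Cry genes, whose proteins return to the nucleus and inhibit the pair. In an interlocking loop, the nuclear receptors REV-ERB alpha (Nr1d1) and REV-ERB beta (Nr1d2) repress Arntl through RORE elements, which ROR receptors activate. Dbp is an output gene that encodes a D-box activator, and Bhlhe41 encodes the E-box repressor DEC2. In macrophages the clock is known to gate inflammatory responses, and REV-ERB proteins repress several inflammatory genes.

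Promoter sequence is shown first, because transcripts of Per1 and Arntl start at more than 1 place and because Nr1d1 and Nr1d2 stood at opposite ends of the levels. RefSeq windows (GRCm38.p6, the assembly also called mm10) run from 250 bases before a start to 50 from it, and 13 windows covered 9 of the 10 genes. Windows are printed 5′ to 3′ on the gene's strand. The motifs searched on both strands were the E-box CACGTG, the D-box TTATGTAA or TTACGTAA, the RORE TAGGTCA, the cyclic AMP response element (CRE) TGACGTCA and its short form TGACG, which the full CRE contains. In the next 2 windows of Per1 (plus strand) and the window of the downstream start of Arntl (plus strand), capitals mark the motifs found.
Per1 upstream start, chr11:69098699-69098998: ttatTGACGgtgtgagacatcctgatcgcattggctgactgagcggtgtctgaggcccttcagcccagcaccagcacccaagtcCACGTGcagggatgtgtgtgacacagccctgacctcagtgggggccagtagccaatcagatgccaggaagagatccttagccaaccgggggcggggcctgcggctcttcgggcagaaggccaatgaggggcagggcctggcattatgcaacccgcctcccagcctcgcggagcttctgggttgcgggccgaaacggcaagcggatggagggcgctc
Per1 downstream start, chr11:69099902-69100201: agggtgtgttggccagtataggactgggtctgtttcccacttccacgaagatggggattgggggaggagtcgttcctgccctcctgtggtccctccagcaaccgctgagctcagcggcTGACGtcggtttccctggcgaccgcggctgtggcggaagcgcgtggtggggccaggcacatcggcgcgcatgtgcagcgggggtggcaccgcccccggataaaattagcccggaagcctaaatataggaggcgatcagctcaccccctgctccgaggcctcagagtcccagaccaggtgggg
Arntl downstream start, chr7:113207261-113207560: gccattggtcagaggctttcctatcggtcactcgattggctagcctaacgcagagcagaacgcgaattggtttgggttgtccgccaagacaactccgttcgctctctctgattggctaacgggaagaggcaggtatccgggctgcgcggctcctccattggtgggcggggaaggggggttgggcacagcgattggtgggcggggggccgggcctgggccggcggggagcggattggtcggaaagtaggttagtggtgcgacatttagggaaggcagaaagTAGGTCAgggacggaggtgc
The upstream Per1 window held an E-box 166 bases before the start and a short CRE 246 bases before it, and the downstream window held a short CRE 132 bases before its start. The Arntl window held the single exact match to the RORE letters TAGGTCA in the member windows, beginning 30 bases after the start. Only exact strings were searched, so near matches to a motif were not counted.

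Stretches of 60 bases around the other E-boxes are shown for Cry1 and Bhlhe41, both on the minus strand of the genome, with the E-box in capitals.
Cry1, chr10:85185082-85185141: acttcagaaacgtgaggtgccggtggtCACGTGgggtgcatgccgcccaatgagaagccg
Bhlhe41, chr6:145865541-145865600: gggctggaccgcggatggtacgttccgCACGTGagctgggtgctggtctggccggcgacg
The E-box lay 60 bases before the start of Cry1 and 153 bases before that of Bhlhe41. An E-box was thus found in 3 of the 9 genes with a window, namely Per1, Cry1 and Bhlhe41. By window it was in 3 of the 13, beside 7.15% of all 32851 RefSeq windows. A RORE is held by 2.61% of all windows and a short CRE by 20.8%. The short CRE was found in 3 of the 9 genes, Per1, Cry1 and Cry2, and in 4 of the 13 windows. No member window held a D-box (1.06% of all windows) or a full CRE (1.79%). A match is a string of letters and not a measured binding site, and no binding was measured here.

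The windows of the REV-ERB genes, both on the minus strand, held none of these motifs, and capitals mark their CG dinucleotides instead.
Nr1d1, chr11:98775328-98775627: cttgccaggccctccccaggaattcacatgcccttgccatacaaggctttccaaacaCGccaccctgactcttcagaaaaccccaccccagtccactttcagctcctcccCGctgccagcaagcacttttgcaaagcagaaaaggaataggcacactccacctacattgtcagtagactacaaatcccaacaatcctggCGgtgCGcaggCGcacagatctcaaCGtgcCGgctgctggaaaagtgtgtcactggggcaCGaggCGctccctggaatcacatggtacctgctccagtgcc
Nr1d2, chr14:18239057-18239356: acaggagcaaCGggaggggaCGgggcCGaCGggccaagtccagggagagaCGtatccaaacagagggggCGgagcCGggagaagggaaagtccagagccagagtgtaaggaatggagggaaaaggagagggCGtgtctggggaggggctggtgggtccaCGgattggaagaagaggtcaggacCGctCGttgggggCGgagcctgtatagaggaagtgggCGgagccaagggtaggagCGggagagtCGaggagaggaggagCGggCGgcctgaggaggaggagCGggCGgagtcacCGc
The Nr1d1 window had 9 CG dinucleotides and 56.3% G and C, against 20 and 65.7% in Nr1d2. The median over all windows was 7 CG dinucleotides and 52.7% G and C, and the Clock window at its middle start had the most of any member window, 46. The other windows of Clock had 9 and 42, those of Per1 16 and 21 and those of Arntl 21 and 22. Cry1 had 38, Cry2 30, Dbp 18 and Bhlhe41 32. A link between CG content and level was not tested.

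Replicates 1 and 2 held 23845991 and 20675294 counts of genes, of which the 10 members took 6554 and 6028. Mitochondrial genes took 2.91% (95% Wilson interval 2.90 to 2.91) and 6.91% (6.90 to 6.92) of these. These genes are transcribed outside the nucleus, and the part of such RNA in the levels below was not tested. All 10 macrophage markers stood above 10 TPM in each library, with summed levels of 2148 and 3588 TPM. TPM is a transcript's share of a library, corrected for transcript length and set to a fixed total. Values are from the table made from transcriptome alignments (alignment-based) unless the table made from the read files (read-based) is named. Of 28 markers of T cells, B cells, neutrophils, fibroblasts, endothelial cells, erythroid cells and dendritic cells, 0 reached 1 TPM in both libraries, and their levels summed to 2.69 and 4.38 TPM. By the read-based values 2 did, and the sums were 5.58 and 15.2 TPM. These were the endothelial marker Pecam1, at 0.90 and 1.21 TPM by alignment and 1.81 and 6.29 by reads, and the T-cell marker Cd3d, at 0.02 and 0.03 against 1.21 and 3.99. The neutrophil markers Ly6g and Elane had 0 counts in both tables, while the T-cell markers Cd3e, Cd3g and Cd8a had 0 by alignment but, in replicates 1 and 2 of the read-based table, 4.40 and 1 for Cd3e, 23.1 and 32.02 for Cd3g and 68.9 and 105 for Cd8a. The part of other cells in the levels below was not tested. In bulk RNA, fewer expressing cells and less RNA per cell cannot be told apart.

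The clock genes spanned a wide range of levels around that of the median expressed gene. Nr1d2, Clock and Per1 were the most abundant, and Per2 and Nr1d1 the least, with 8 of the 10 at or above 1 TPM in both libraries. Over all 22015 nuclear protein-coding genes of the tables, 41.8% reached that level. The members' median was 3.58 TPM in each library, against 3.07 and 3.94 TPM for nuclear protein-coding genes listed above 0. Nr1d2 alone reached 10 TPM in both libraries of the alignment-based table (7.45 and 11.8 TPM in the read-based one), a level that 15.5% of nuclear protein-coding genes reached.

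**Figure D1:**
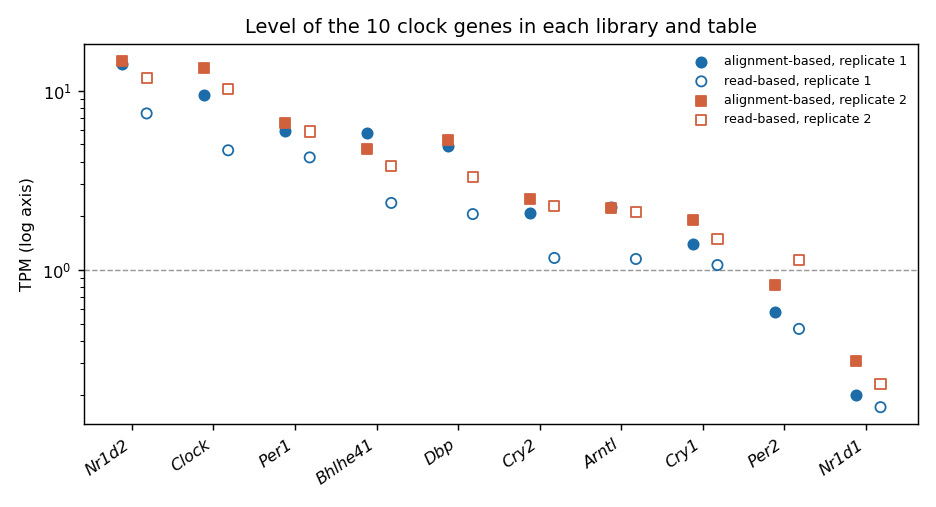
TPM (log axis) of each clock gene, ordered by mean; circles are replicate 1 and squares replicate 2, filled for the table made from transcriptome alignments and open for the table made from the read files. Nr1d2 is the highest and Nr1d1 the lowest in all 4 sets of values, and the dashed line marks 1 TPM.

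The positive limb of the loop was uneven. Clock, which encodes 1 partner of the activating pair (chromosome 5, 76209868 to 76304792, minus strand), stood at 9.38 TPM in replicate 1 and 13.3 in replicate 2 (mean 11.3 ± 2.77, SD, n = 2). Its partner Arntl (chromosome 7, 113207465 to 113314126, plus strand) stood at 2.25 and 2.22 TPM (2.24 ± 0.0212). Clock was therefore 4.17-fold higher than Arntl in replicate 1 and 5.99-fold higher in replicate 2. In the percentiles of nuclear protein-coding genes listed above 0, Clock was at 73.6 and 76.3 and Arntl at 44.4 and 39.8. Clock had 2066 and 2269 counts and Arntl 237 and 154.

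Among the repressors of the pair, the PER and CRY genes differed within each family. Per1 (chromosome 11, 69095217 to 69109960, plus strand), whose promoter also answers cyclic AMP signals, stood at 5.98 and 6.55 TPM (6.27 ± 0.403, n = 2). Per2 (chromosome 1, 91415982 to 91459324, minus strand), its paralog in the same repressor complex, stood at 0.58 and 0.82 TPM (0.70 ± 0.17) and did not reach 1 TPM in either library. Per1 was 10.3-fold and 7.99-fold above Per2 in replicates 1 and 2, and their values did not overlap. In the read-based table the folds were 9.06 and 5.23. The cryptochrome genes lay close together. Cry2 (chromosome 2, 92403646 to 92434043, minus strand) stood at 2.07 and 2.47 TPM (2.27 ± 0.283), and Cry1 (chromosome 10, 85131700 to 85185064, minus strand) at 1.40 and 1.90 (1.65 ± 0.354). Cry2 was 1.48-fold and 1.30-fold above Cry1 within a library. The credibility intervals of TPM in the authors' tables were wide for Cry1, 1.33 to 9.55 and 1.63 to 13.2, and for Per2, 0.495 to 3.56 and 0.693 to 3.75. The intervals of Cry1 and Cry2 overlapped in both libraries, so their order is uncertain. Bhlhe41 (chromosome 6, 145858243 to 145865558, minus strand) stood at 5.76 and 4.69 TPM (5.23 ± 0.757) and was, with Arntl, 1 of 2 members with a lower TPM in replicate 2. In the read-based table both were higher there, Bhlhe41 at 2.36 and 3.78 TPM and Arntl at 1.15 and 2.10.

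The REV-ERB genes were the furthest apart. Nr1d2 (chromosome 14, 18204054 to 18239127, minus strand) was the highest of all members at 14.1 and 14.6 TPM (14.4 ± 0.297, n = 2), with 1507 and 1478 counts. Nr1d1 (chromosome 11, 98767932 to 98775333, minus strand) was the lowest at 0.20 and 0.31 TPM (0.255 ± 0.0778), on only 16 and 22 counts. Nr1d2 was 70.7-fold above Nr1d1 in replicate 1 and 47.0-fold in replicate 2, and 43.6-fold and 51.0-fold in the table made from the read files. The proteins of both genes bind the same RORE elements. Nr1d1 shares 263 of its 3077 exon bases with Thra, a thyroid hormone receptor gene on the opposite strand that had 122 and 119 counts. Neither the labels nor the headers state whether the counting used strand, so part of the few Nr1d1 counts may be reads of Thra.

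The output gene Dbp (chromosome 7, 45705088 to 45710203, plus strand) stood at 4.90 and 5.31 TPM (5.11 ± 0.29, n = 2), 24.5-fold and 17.1-fold above Nr1d1. In the read-based table it was 12.0-fold and 14.2-fold above. Dbp shares 539 of its 2993 exon bases, 18.0%, with Sphk2, a sphingosine kinase gene on the opposite strand. Sphk2 had 1989 and 1391 counts against 233 and 202 for Dbp, so the Dbp level is uncertain. Bhlhe41 shares 1280 exon bases with Gm43909, a record on the opposite strand with 85 and 20 counts. Cry2 shares 295 bases with D930015M05Rik, which had 12 and 4 counts, and Arntl shares 33 with Gm45355, which had 0. For Clock the 2 records inside it share no exon base, and Per1, Per2, Cry1 and Nr1d2 overlap no other gene.

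In order of mean TPM the genes ran Nr1d2, Clock, Per1, Bhlhe41, Dbp, Cry2, Arntl, Cry1, Per2 and Nr1d1. Between neighbours, the values of both libraries overlapped for Bhlhe41 and Dbp and for Cry2 and Arntl, which were not told apart. Clock and Per1, Dbp and Cry2, and Per2 and Nr1d1 were separate by the credibility intervals within both libraries as well. These levels sum all annotated transcripts of a gene. Protein-coding transcripts held 53.9% and 60.3% of Clock TPM, against 100% and 97.6% of Per1 TPM. In replicate 1 the protein-coding Clock-201, Clock-204 and Clock-205 had 0.81, 0.43 and 3.82 TPM, together below the 5.98 of Per1. In replicate 2 they had 1.70, 0.44 and 5.89, together above the 6.55 of Per1. In the read-based table protein-coding transcripts held 46.7% and 51.0% of 4.64 and 10.2 TPM for Clock. For Per1 they held 96.2% and 94.8% of 4.23 and 5.91 TPM, the higher level in both libraries. The order of the other members on protein-coding transcripts alone was not tested. For Nr1d2 and Clock the intervals were separate in replicate 1 (12.7 to 15.02 against 8.65 to 9.73 TPM) but overlapped in replicate 2 (13.2 to 15.2 against 12.2 to 13.6). Over all transcripts of a gene, the table made from the read files gave the same order as the mean TPM above in both libraries. Its TPM was lower for all members except Per2 in replicate 2 (1.13 against 0.82).

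The 2 libraries were then compared on counts scaled for library size (TMM factors), as log2 ratios of replicate 2 over replicate 1. These ratios describe these libraries and have no replicate check. Of the 9 members that averaged 100 counts or more, 0 lay beyond 2-fold, against 3.49% of 9675 genes at that count, and 0 beyond 1.5-fold, against 16.2%. With so few members, a count of 0 is near these shares. The members' median was -0.01, beside 0.02 over all genes. Clock was higher in replicate 2, at 0.33 (95% Clopper-Pearson counting interval 0.25 to 0.42), and so was Nr1d2, at 0.17 (0.06 to 0.27). Arntl was lower at -0.42 (-0.73 to -0.13), Cry1 at -0.39 (-0.77 to -0.02) and Bhlhe41 at -0.34 (-0.47 to -0.20). Intervals left out equality for these 5 of 9, against 65% of all genes, and they cover counting error only. Those of Per1 (-0.12), Dbp (-0.01), Cry2 (0.02) and Per2 (0.21) included it. By these counts the partners Clock and Arntl thus differed in opposite directions between the libraries. By TPM of the same table Clock was at 0.50 and Arntl at -0.02. Counts of the table made from the read files put Arntl and Bhlhe41 nearer equality, at -0.08 each. They put Cry1 at -0.41, Nr1d2 at 0.18 and Clock at 0.30.

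**Figure D2:**
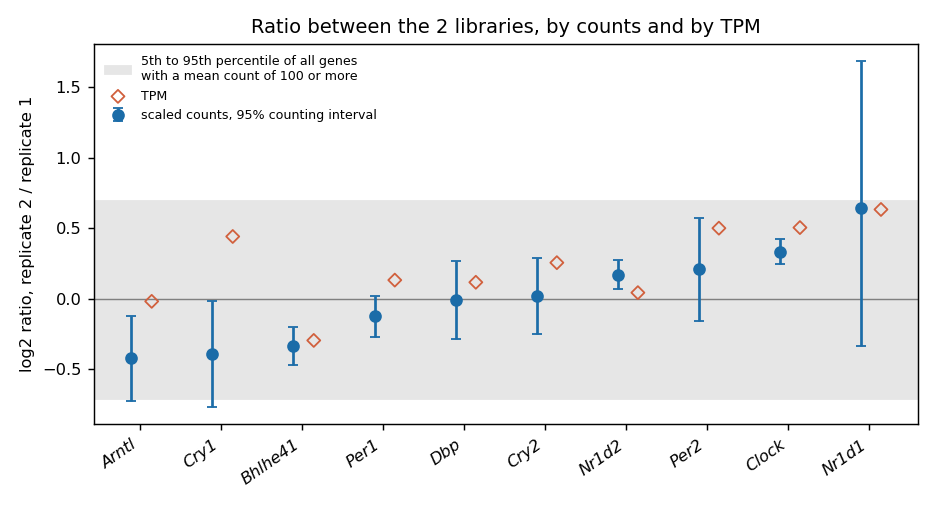
Log2 ratio of replicate 2 over replicate 1 for each clock gene, from scaled counts with 95% counting intervals (circles) and from TPM (diamonds); the grey band is the 5th to 95th percentile of scaled-count ratios of all genes that averaged 100 counts or more. All circles lie inside the band of -0.71 to 0.70, and Per1, Cry1 and Dbp have a circle below 0 and a diamond above it, furthest apart for Cry1.

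TPM and counts gave 3 members opposite directions, Per1, Cry1 and Dbp. The TPM ratios of Per1 and Dbp were 0.13 and 0.12, and their count intervals included equality, while that of Cry1 did not. Cry1 had 152 and 101 counts, but a TPM of 1.40 and 1.90, a log2 ratio of 0.44. TPM divides the counts by an effective length, which the deposited tables give as 2795 bases in replicate 1 and 1918 in replicate 2 for this gene. In replicate 2 the retained-intron record Cry1-204 received 5.35 expected counts and 35.3% of the Cry1 TPM, against 0 in replicate 1. In the read-based table retained-intron records held 37.3% and 36.9% of Cry1 TPM, without that shift. There too Cry1 had a higher TPM in replicate 2 (1.06 and 1.49) and a count ratio below 0 (-0.41). By alignment, Nr1d2 differed the other way from Cry1. Its effective length was 2744 and 3655 bases, its count ratio 0.17 and its TPM ratio 0.04. Nuclear protein-coding genes that averaged 100 counts or more had a median TPM ratio of 0.28 and a median count ratio of 0.03.

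Annotated transcripts were compared next, since nuclear RNA can hold RNA that has not been fully spliced. In the alignment-based table, protein-coding transcripts held a median of 78.8% of a member's TPM in replicate 1 and 82.8% in replicate 2, close to 75.7% and 81.1% over the 9207 nuclear protein-coding genes that reached 1 TPM in both. Retained-intron records exist for 6 members, Nr1d2, Cry1, Dbp, Arntl, Clock and Bhlhe41. In Clock they held 37.7% and 35.4% of TPM, chiefly the record Clock-203 (27.6% and 23.9%). In Arntl they held 35.1% and 43.0%, in Nr1d2 45.9% and 22.7%, in Dbp 43.2% and 17.0%, and in Bhlhe41 14.6% and 2.13%. The median over 5914 genes with such a record was 25.9% and 20.6%, and 4 of 6 members lay above it in each library. The share was lower in replicate 2 for 4 of these 6 members, against 69.3% of all such genes.

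**Figure D3:**
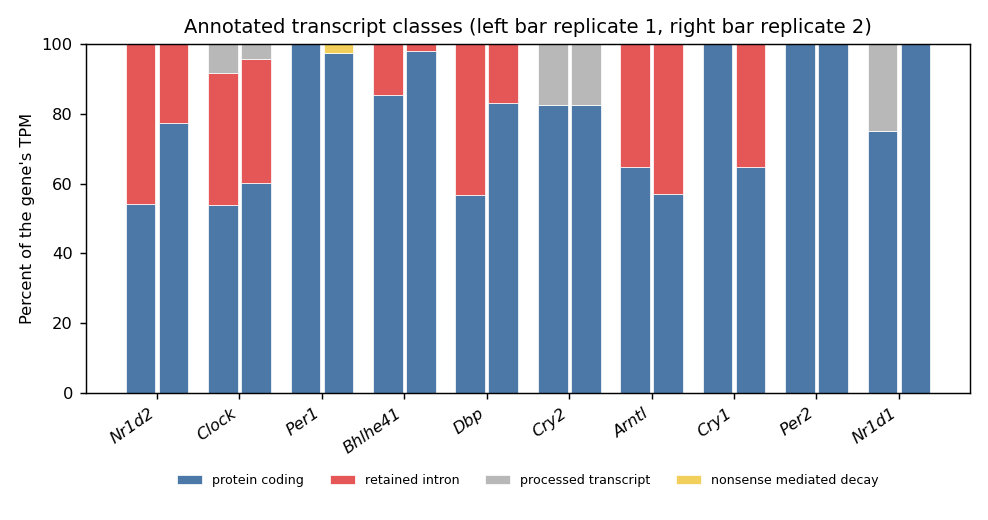
Percent of each clock gene's TPM in 4 classes of annotated transcript, alignment-based table, with replicate 1 as the left bar and replicate 2 as the right bar. Retained-intron records hold over 35% of Clock in both libraries, while Nr1d2 and Dbp have a smaller share in replicate 2 than in replicate 1.

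A short record needs few reads to reach a given TPM, and shares of counts were smaller in several members. Retained-intron records took 13.5% (exact 95% interval 11.8 to 15.3) and 6.07% (4.92 to 7.43) of the Nr1d2 counts, on 203 and 89.7 expected counts. They took 14.0% (12.6 to 15.6) and 12.3% (10.9 to 13.7) of Clock counts, and 33.1% (27.0 to 39.5) and 12.0% (7.76 to 17.2) of Dbp counts. Arntl had the highest share of the 6 in both libraries, 38.0% (31.8 to 44.5) and 39.0% (31.2 to 47.1), against a median of 14.3% and 11.3% over all genes with one. Most of these came from Arntl-202 (85 and 52 expected counts), which starts inside the gene at base 113239754. On counts, 2 of 6 members in replicate 1 and 3 of 6 in replicate 2 lay above the median of all genes. The table made from the read files put 34.7% and 31.8% of Arntl counts in retained-intron records. These records are assigned by the quantification from reads that transcripts share, and intron reads outside annotated transcripts were not counted.

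By start site in the alignment-based table, most Per1 TPM belonged to Per1-201, with 55.7% and 64.6%. This transcript starts at the upstream window printed above. Per1-202, starting at base 69095217, before that window, held 38.0% and 27.8%. Transcripts that start in the downstream window, Per1-204 and Per1-206, held 5.02% and 5.19% in the alignment-based table. The table made from the read files gave Per1-201 38.3% and 49.2% of Per1 TPM. It gave Per1-204 36.4% and 19.6%, on 45.3 and 21.6 estimated counts. The use of the downstream start and the majority of Per1-201 are therefore uncertain. In Clock, Clock-205 was the leading transcript of the alignment-based table at 40.7% and 44.2%. The read-based table gave it 21.6% and 25.7%, against 28.5% and 25.6% for the retained-intron record Clock-203. In Arntl, Arntl-201, which starts at base 113207465, before the printed RORE, held 52.9% in each library.

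Of 28 other genes of the clock loops, 20 reached 1 TPM in both libraries, beside the 41.8% given above for nuclear protein-coding genes, and 6 reached it in neither. The highest were Ncor1, the corepressor that REV-ERB proteins recruit, at 54.9 and 92.1 TPM (73.5 ± 26.3, n = 2), Sfpq, an RNA-binding protein of the PER complex, at 57.6 and 67.5 (62.5 ± 6.97) and Nampt, an enzyme of NAD synthesis under clock control, at 43.4 and 55.3 (49.3 ± 8.43). The corepressor deacetylase gene Hdac3 stood at 6.41 and 6.30. Among genes whose enzymes mark PER and CRY proteins for degradation, the kinase gene Csnk1d stood at 19.3 and 20.1 TPM, above every PER and CRY member. Csnk1e was lower, at 4.18 and 3.46.

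Paralogs of several members lay at the low end. Npas2, which can replace Clock, stood at 0.06 and 0.11 TPM on 9 and 12 counts, and Hlf, a relative of Dbp, had 0 and 2 counts. Tef, another relative of Dbp, was higher than Dbp at 11.4 and 12.9. Per3 stood at 1.74 and 1.64 TPM and Bhlhe40, the paralog of Bhlhe41, at 2.96 and 2.78. Among ROR genes, whose products oppose REV-ERB at RORE elements, Rora stood at 0.59 and 1.23 TPM, while Rorb had 0 counts in both libraries, which allows up to 3 counts or 0.126 and 0.145 CPM (counts scaled to library size) in replicates 1 and 2, for counting error only. That limit holds for the alignment-based table, since the read-based table gave Rorb 207 and 421 counts (0.215 and 0.824 TPM). Nfil3, a repressor at the D-boxes that Dbp activates, had 163 and 355 counts and was higher in replicate 2 by 1.32 on the log2 scale. It was the single one of the 21 genes of this list averaging 100 counts or more that lay beyond 2-fold. Over all 9675 genes at that count, 3.49% did, and with so few genes a count of 1 is near that share.

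**Figure D4:**
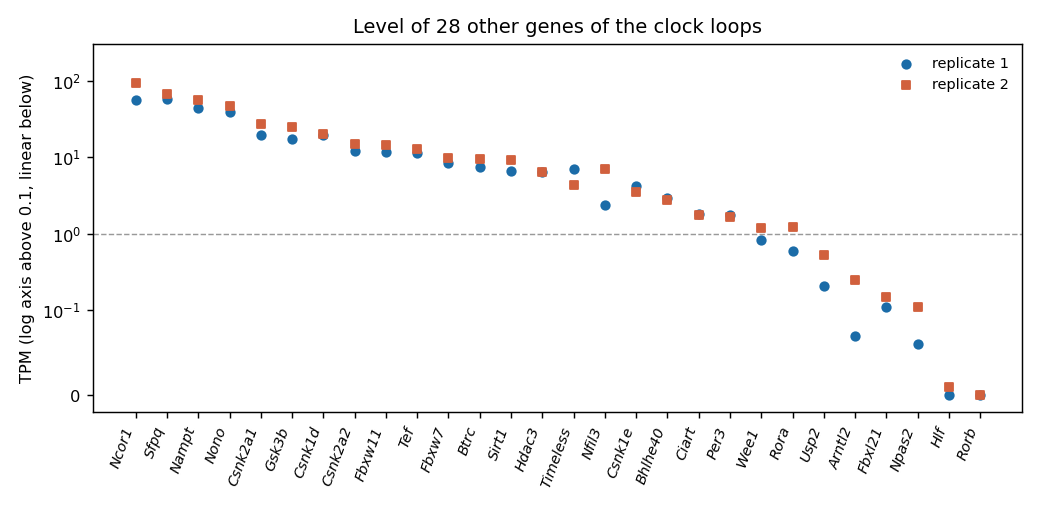
TPM (log axis above 0.1, linear below) of 28 other genes of the clock loops in replicate 1 (circles) and replicate 2 (squares), alignment-based table, ordered by mean. Ncor1, Sfpq and Nampt are the highest, and Rorb is at 0 in both libraries.

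Genes that REV-ERB proteins are known to repress in macrophages were spread over the whole range beside the high Nr1d2. Ccl2, a monocyte chemokine, stood at 167 and 132 TPM (150 ± 24.6, n = 2) and Nlrp3, an inflammasome sensor, at 77.2 and 76.9 (77.0 ± 0.212). Il6 stood at 2.22 and 5.97 TPM (4.10 ± 2.65). Cx3cr1, the fractalkine receptor, stood at 0.14 and 0.17 TPM and Mmp9, a matrix protease, at 0.04 and 0.15, on 19 and 17 and on 5 and 12 counts. The level of Cx3cr1 depended on the table, with 152 and 321 counts and 0.383 and 1.51 TPM in the read-based one. Whether REV-ERB acts on these genes here was not tested.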

How the data were processed

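Ribosome-depleted nucleoplasmic RNA of 2 libraries of 1 group was analysed. Per the file headers and README texts, the authors quantified RNA on mm10 with GENCODE M21, once from transcriptome alignments (alignment-based) and once from the read files (read-based). Which tools, strand setting or trimming were used is stated in none of these. The deposited expected counts (estimated counts) share ambiguous reads and were rounded here. The deposited TPM and FPKM are corrected for effective length by the authors. The deposited credibility bounds of TPM are treated as a score with no fixed range. The deposited percent of each gene's TPM per transcript was recomputed from TPM.

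Rows that are no annotated gene (26345 rows, with 1.10% and 0.267% of all counts in replicates 1 and 2) were left out. Ratios used TMM factors of edgeR 4.0.16 (0.997 and 1.00) and a prior count of 0.5, with exact 95% intervals, at a mean count of 100 or more. The ratios, but not the intervals, were tested on simulated counts with known folds. That simulation held counting error only. The tables record no molecular identifiers, so reads need not be independent molecules, and intervals and floors cover counting error only. The libraries differed by a chi-square of 113 per gene over 14345 genes of at least 10 counts in each, so they are not 1 library listed again. Alternatives were DESeq2 1.42.0 size factors, total counts, other minimums, the read-based values and single libraries. All 10 members were named. Besides the 28 other clock genes, 2 of the list as first drawn up are not reported here and enter no count. Of the other lists, genes were named by role, besides the highest and lowest. Members and lists were chosen with earlier results of these data known. Software was R 4.3.3, matplotlib 3.10.9, Python 3.11.15 and scipy 1.17.1.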

Additional observations from a re-analysis of the deposited data

How the results depend on the processing

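The count of members beyond 2-fold stayed at 0 under DESeq2 size factors, total counts, the read-based table, lower count minimums and a 1.5-fold limit, and their median ratio stayed between -0.08 and 0.13. The median member level was 3.69 TPM over both libraries, 3.58 in either library alone (3.575 to 3.58) and 2.19 in the read-based table. Relative to the median protein-coding gene it was 1.04, and 1.34 in the read-based table. At a minimum of 5 TPM, 3 members in place of 8 passed in both libraries. The median share of TPM in protein-coding transcripts was 80.8%, and 68.4% in the read-based table, and the cause was not tested. Arntl2, named after its values were seen, also differed between the tables. It stood at 0.07 and 0.25 TPM (6 and 16 counts) in the alignment-based table. The read-based table gave it 8.55 and 12.1 TPM (771 and 653 counts), with nearly all of this TPM in the retained-intron record Arntl2-208. Depth limits Nr1d1, whose 16 and 22 counts gave a log2 ratio of 0.64 with an interval of -0.34 to 1.68. No paired analysis was possible because there is 1 group.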
